A study of Homo sapiens with 18 samples.

Results

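The genes described here carry cholesterol out of the lysosome and out of the cell, sense oxysterols through the liver X receptors (LXR), or are classical targets of these receptors. They were chosen by name from the pathway, and all 10 chosen genes were among the 13992 genes listed: the receptors NR1H3 and NR1H2, the exporters ABCA1 and ABCA7, the lysosomal carriers NPC1 and NPC2, the lipoprotein genes APOE and PLTP, the ubiquitin ligase gene MYLIP and the phospholipid acyltransferase gene LPCAT3. All 10 passed the filter on low values, so none was left untested. The cells were HMC3, a human cell line that the labels describe as microglial and of wild type genotype. The 6 groups, with 3 libraries of poly-A RNA each, were cells without oxidized low-density lipoprotein (oxLDL; 0 µg/ml) and cells kept for 24 h with 1 µg/ml, 2.5 µg/ml, 10 µg/ml, 50 µg/ml and 100 µg/ml of it. Every group came from the same line, and the cells at 0 µg/ml are the only reference. What vehicle they received is not given in the sources used here, and neither is whether libraries sharing a dose were grown as separate cultures.

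Liver X receptors are nuclear receptors that bind oxysterols, pair with a retinoid X receptor (RXR) and switch on genes of cholesterol export. Lipoprotein taken up by endocytosis releases its cholesterol in the lysosome, where NPC2 binds the free sterol and hands it to the membrane protein NPC1 for export to other membranes. At the plasma membrane ABCA1 loads cholesterol and phospholipid onto apolipoproteins such as APOE. In brain, microglia and astrocytes make APOE-containing particles, and variants at ABCA7 and APOE are linked to the risk of Alzheimer's disease. MYLIP limits uptake by marking lipoprotein receptors for degradation, and the sterol-regulated SREBP2 pathway works in the opposite direction, raising synthesis and uptake when sterol is scarce.

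Values are FPKM, fragment numbers scaled to transcript length and to the library's total, so levels of different genes are compared per length. Whole read numbers recovered from the FPKM steps gave totals of 13902719 to 37338597 per library, and no 2 libraries of a dose agreed within sampling noise. The third library at 2.5 µg/ml stood apart. Its median deviation from the mean of its dose was 0.0641 on the log2 scale, against 0.033 to 0.0515 in the other 17 libraries, and it was the highest of all 18 for ABCA7, MYLIP and LPCAT3. Results that it changes are given with and without it. Of the microglia and macrophage markers, TMEM119, P2RY12, CX3CR1, CSF1R and AIF1 were not analysed here. CD68, a lysosomal protein of macrophages, averaged 15.0 ± 0.683 FPKM at 100 µg/ml and 12.3 ± 0.278 FPKM at 0 µg/ml, and CD14 and OLFML3 averaged 0.630 ± 0.229 and 0.852 ± 0.201 FPKM at 100 µg/ml, against 1.08 ± 0.0978 and 1.08 ± 0.151 FPKM at 0 µg/ml. For fibroblasts and pericytes, 8 of 12 markers were analysed, among them VIM, FN1 and COL1A1, and they summed to 1520 to 1623 FPKM at 100 µg/ml, against 1812 to 1927 FPKM at 0 µg/ml. The part of these marker differences in the results below was not tested. In bulk RNA, fewer cells of a type and less RNA per cell cannot be told apart.

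The 4 genes with a call at 100 µg/ml (ABCA1, ABCA7, NR1H2 and NPC1, below) are shown with the bases just before their transcription start, because LXR and SREBP are known to bind short elements near start sites. The sequences are the 250 bases upstream of the RefSeq start on GRCh38.p14, each written 5′ to 3′ on the strand of its gene. They lie at chr9:104928156-104928405 on the minus strand for ABCA1, chr19:1039857-1040106 on the plus strand for ABCA7, chr19:50376207-50376456 on the plus strand for NR1H2 and chr18:23586507-23586756 on the minus strand for NPC1. Capitals mark matches to the motifs searched.
ABCA1: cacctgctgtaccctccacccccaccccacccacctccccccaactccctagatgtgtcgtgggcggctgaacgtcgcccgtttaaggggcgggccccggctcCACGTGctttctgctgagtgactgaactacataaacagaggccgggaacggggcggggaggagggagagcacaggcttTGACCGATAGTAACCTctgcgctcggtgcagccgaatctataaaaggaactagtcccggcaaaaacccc
ABCA7: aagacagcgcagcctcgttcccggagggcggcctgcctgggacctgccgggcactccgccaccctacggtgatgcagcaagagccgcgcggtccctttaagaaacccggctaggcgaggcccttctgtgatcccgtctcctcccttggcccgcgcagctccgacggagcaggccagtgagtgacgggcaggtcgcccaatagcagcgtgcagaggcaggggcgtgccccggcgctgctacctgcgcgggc
NR1H2: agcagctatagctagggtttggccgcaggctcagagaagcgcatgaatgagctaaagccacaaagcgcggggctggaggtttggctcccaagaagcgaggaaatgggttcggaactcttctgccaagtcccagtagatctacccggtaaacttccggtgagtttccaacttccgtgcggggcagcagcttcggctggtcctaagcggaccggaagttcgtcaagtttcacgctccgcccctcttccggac
NPC1: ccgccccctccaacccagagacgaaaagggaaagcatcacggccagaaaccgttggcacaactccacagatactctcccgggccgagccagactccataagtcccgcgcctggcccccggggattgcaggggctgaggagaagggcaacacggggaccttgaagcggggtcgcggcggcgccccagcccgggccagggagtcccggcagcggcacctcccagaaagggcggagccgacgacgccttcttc

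The motifs were searched on both strands of the 250 bases. They were the LXR response element (AGGTCA, any 4 bases, and AGGTCA again) with at most 2 mismatches, the sterol response element TCACNCCAC, the antioxidant response element TGACNNNGC, the lysosomal CLEAR core TCACGTGA and the E-box CACGTG, which lies within the CLEAR core. In the ABCA1 sequence the capitals TGACCGATAGTAACCT are a match to the LXR element on the opposite strand with 2 mismatches, at positions -69 to -54 counted from the start site. The other capitals there, CACGTG at -147 to -142, are an E-box. The printed windows of ABCA7, NR1H2 and NPC1 held none of these letters. Over the 17 start sites of the 10 genes the only further match was an antioxidant element, TGACTGGGC, at -65 to -57 of the second NPC2 start site. Of 35116 start sites of all genes, 2.03% held the LXR element at this tolerance, 0.883% the sterol element, 10.9% the antioxidant element, 0.854% the CLEAR core and 6.34% the E-box.

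At 100 µg/ml, ABCA1, NR1H2 and NPC1 rose and ABCA7 fell, each by less than 0.3 on the log2(FPKM + 0.5) scale, which understates the change of low genes such as ABCA1 and ABCA7, and the other 6 genes did not pass the test. A call means an adjusted p below 0.05 in limma, fitted over 12127 genes on log2(FPKM + 0.5) and adjusted by Benjamini-Hochberg. The 4 called of 10 stand beside a background of 15.5% of all genes called at 100 against 0 µg/ml, with 7.94% higher and 7.51% lower. The median log2 fold change of the 10 genes was 0.0311, against -0.00374 over all genes tested, and the median of its absolute value was 0.105, against 0.0799. At 50 µg/ml only ABCA7 was called, where 7.47% of all genes were (3.78% higher and 3.69% lower), and the median log2 fold change was 0.0401 for the 10 genes and 0.00412 for all. At 10 µg/ml none of the 10 was called by limma, where 0.0412% of all genes were, and 2 of them, ABCA1 and APOE, had p under 0.05 before adjustment. With 1 or 2.5 µg/ml no gene of the 12127 was called by limma or by limma-voom (365 and 531 genes had p under 0.05 before adjustment in limma), and none of those was among the 10 genes. All these comparisons share the same 3 libraries at 0 µg/ml.

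**Figure D1:**
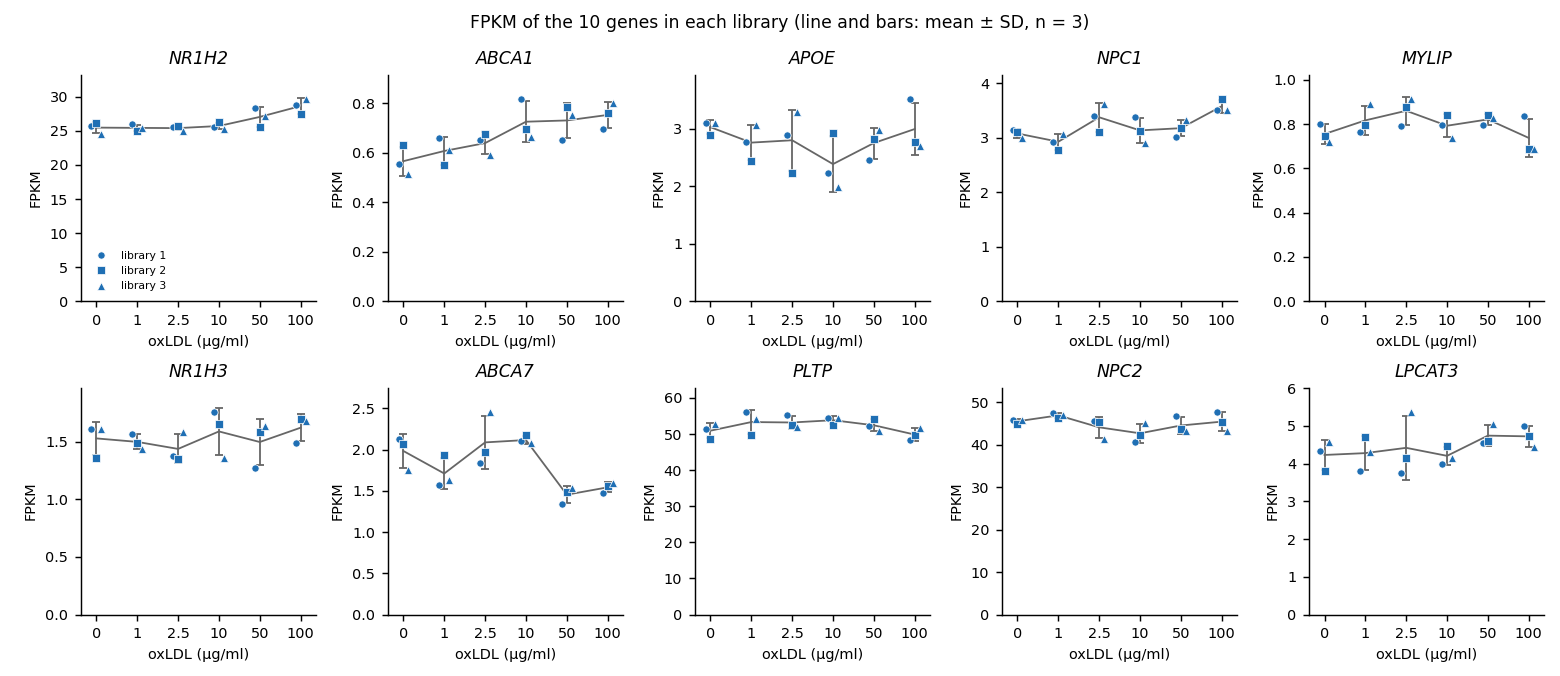
FPKM of each of the 10 genes (vertical axes, from 0) in every library against the oxLDL dose in µg/ml (horizontal axes, doses evenly spaced), with 1 symbol per library number and a line with bars for the mean ± SD of 3 libraries. The 3 libraries at 100 µg/ml lie above all 3 at 0 µg/ml for NR1H2, ABCA1 and NPC1 and below them for ABCA7. The share of all genes whose libraries lie apart in this way is not given here.

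Of the receptors, NR1H2 (LXR beta, made in most cell types) was the more abundant, and it rose at the highest dose. NR1H2 lies at chr19:50376457-50383388 on the plus strand. It had 25.7, 26.1 and 24.6 FPKM at 0 µg/ml, 25.9, 25.0 and 25.4 at 1, 25.5, 25.7 and 25.0 at 2.5, 25.6, 26.3 and 25.3 at 10, 28.4, 25.5 and 27.2 at 50, and 28.8, 27.5 and 29.7 FPKM at 100 µg/ml. The 3 libraries at 100 µg/ml were above all libraries at 0 to 10 µg/ml, while those at 50 µg/ml overlapped them. The mean was 28.6 ± 1.13 FPKM at 100 µg/ml and 25.5 ± 0.780 FPKM at 0 µg/ml (SD, n = 3 each), 12.4% higher, a log2 fold change of 0.17 ± 0.039 (SE; 95% interval 0.08 to 0.25; adjusted p = 0.00789). The call at 100 µg/ml was kept in all 29 other settings. The difference at 50 µg/ml was 0.08 (adjusted p = 0.223). NR1H2 was also called over all doses (limma F test, adjusted p = 0.0203, against a background of 15.4% of genes) and for a slope of 0.0233 ± 0.0049 per unit of log2(dose + 1) (adjusted p = 0.00142; 25.6% of all genes had a called slope). Without library 1 or library 3 at 100 µg/ml the F test gave an adjusted p of 0.0775 or 0.106. With 999 to 2480 reads behind each value, counting error was near 2.80% of the level.

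NR1H3 (LXR alpha, abundant in liver and in macrophages, and in human macrophages itself an LXR target) was low. It had 1.49, 1.70 and 1.68 FPKM at 100 µg/ml, against 1.61, 1.36 and 1.61 FPKM at 0 µg/ml. The groups overlapped at every dose, and all 18 values lay between 1.27 and 1.76 FPKM on 74 to 214 reads. The log2 fold change at 100 µg/ml was 0.07 (95% interval -0.12 to 0.25; adjusted p = 0.694), so a change of the size seen for NR1H2 lies within its interval. Within each library NR1H2 was 14.6 to 22.4 times NR1H3, and the ratio averaged 17.7 ± 1.57 at 100 µg/ml, against 16.8 ± 2.10 without oxLDL. NR1H3 lies at chr11:47248300-47269033 on the plus strand, and 189 exonic bases of it are shared with ACP2 on the opposite strand. How strand was treated in counting is not given in the sources used here, so reads from such stretches cannot be assigned to 1 of the genes.

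Among the partners of the receptors and the enzymes that make or conjugate their oxysterol ligands, 7 of 14 genes were tested, and 1 fell at 100 µg/ml. Over all genes tested, limma called 15.5% at that dose, with 7.51% lower. RXRA, the alpha subtype of RXR, averaged 3.42 ± 0.301 FPKM at 100 µg/ml and 4.13 ± 0.130 FPKM at 0 µg/ml, a log2 fold change of -0.24 ± 0.061 (adjusted p = 0.0112). All 3 values at 100 µg/ml were below those at 0 µg/ml. The call was lost without library 1 at 0 µg/ml or library 3 at 100 µg/ml, at most to an adjusted p of 0.0717. The corepressor NCOR1 and the coactivators NCOA1, NCOA2 and NCOA3 did not pass the test, and neither did SULT2B1, which sulfates oxysterols. Before adjustment in limma, 1 of the 7 at 100 µg/ml, NCOA3, was higher with p under 0.05, and 2, RXRA and NCOA2, were lower. At 50 µg/ml limma called none of the 7, and 1 of them, RXRA, had p under 0.05 before adjustment.

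ABCA1, the exporter that lipidates apolipoproteins and a standard LXR target, was among the lowest of the 10 genes, and its mean was higher at each successive dose. ABCA1 lies at chr9:104781006-104928155 on the minus strand. It had 0.556, 0.630 and 0.513 FPKM at 0 µg/ml, 0.662, 0.550 and 0.610 at 1, 0.652, 0.676 and 0.590 at 2.5, 0.818, 0.696 and 0.663 at 10, 0.652, 0.787 and 0.754 at 50, and 0.697, 0.761 and 0.801 FPKM at 100 µg/ml. From 10 µg/ml upward every library was above all 3 at 0 µg/ml, while those at 1 and 2.5 µg/ml overlapped them. The means over 3 libraries were 0.566 ± 0.0590, 0.607 ± 0.0560, 0.639 ± 0.0445, 0.726 ± 0.0818, 0.731 ± 0.0703 and 0.753 ± 0.0521 FPKM in order of dose. Relative to 0 µg/ml the means were 7.25%, 12.9%, 28.1%, 29.1% and 33.0% higher. The greater part of the difference between means was thus present at 10 µg/ml, and the 3 highest doses overlapped each other.

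ABCA1 rose at 100 µg/ml by a log2 fold change of 0.23 ± 0.074 (95% interval 0.08 to 0.39; adjusted p = 0.0426). At 50 µg/ml the log2 fold change was 0.21 (0.05 to 0.36; adjusted p = 0.106) and at 10 µg/ml 0.20 (0.04 to 0.36; adjusted p = 0.503), neither of them called. The slope was 0.0341 ± 0.0083 per unit of log2(dose + 1), with an adjusted p of 0.00442, and it stayed called in all 27 other settings. The F test over doses gave an adjusted p of 0.127. Because ABCA1 lies close to the added 0.5, its fold depends on that number: at 100 µg/ml it was 0.36 with 0.1 added, 0.16 with 1 added and 0.41 on recovered reads in limma-voom (adjusted p = 0.0420, 0.0435 and 0.0125). The call at 100 µg/ml was lost in 11 of 28 other settings, with adjusted p-values of 0.0502 to 0.148. Among them were robust eBayes (0.0519), a fit of only the doses compared (0.0945) and the omission of any 1 of 8 libraries: 1 or 3 at 0 µg/ml, 3 at 1, 1 at 2.5, 2 at 10, 3 at 50, and 2 or 3 at 100 µg/ml. Between 114 and 296 reads lay behind each value, a counting error near 8.47%.

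ABCA7, a relative of ABCA1 that moves phospholipid and takes part in phagocytosis, went the other way at the upper doses. It lies at chr19:1040107-1065572 on the plus strand. It had 2.14, 2.06 and 1.75 FPKM at 0 µg/ml, 1.57, 1.93 and 1.63 at 1, 1.84, 1.97 and 2.46 at 2.5, 2.10, 2.18 and 2.08 at 10, 1.34, 1.49 and 1.54 at 50, and 1.48, 1.56 and 1.60 FPKM at 100 µg/ml. All 6 libraries at 50 and 100 µg/ml were below all 3 at 0 µg/ml, and below all 3 at 10 µg/ml. The libraries at 1, 2.5 and 10 µg/ml overlapped those at 0 µg/ml, and 2.46 FPKM, the highest of the 18, is the library that stood apart. The mean fell to 1.54 ± 0.0621 FPKM at 100 µg/ml and to 1.45 ± 0.102 FPKM at 50 µg/ml, against 1.98 ± 0.203 FPKM at 0 µg/ml. It thus fell by 22.2% at 100 µg/ml and fell by 26.7% at 50 µg/ml.

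The log2 fold change of ABCA7 was -0.28 ± 0.086 at 100 µg/ml (95% interval -0.46 to -0.10; adjusted p = 0.0375) and -0.34 ± 0.086 at 50 µg/ml (-0.53 to -0.16; adjusted p = 0.0230). The step between the adjacent doses was itself called: at 50 against 10 µg/ml the log2 fold change was -0.42 ± 0.086 (adjusted p = 0.0145; background 2.61% of genes, 1.39% higher and 1.22% lower). Other settings for this step were added after its value was seen, and it was lost in 3 of 29: without library 1 or 2 at 10 µg/ml or library 1 at 50 µg/ml (adjusted p = 0.0582, 0.0808 and 0.0726). Between 100 and 50 µg/ml none of the 10 genes was called by limma (background 0.28%, with 0.223% higher and 0.0577% lower), and 1 of them, NPC1, had an unadjusted p under 0.05. Over all doses ABCA7 had an adjusted p of 0.00562 (F test), kept in all 28 other settings. The call at 100 µg/ml was lost without library 1 or 2 at 0 µg/ml or any 1 of the 3 at 100 µg/ml (adjusted p = 0.0693 to 0.148). At 50 µg/ml it was lost without library 1 or 2 at 0 µg/ml or library 1 or 2 at 50 µg/ml (adjusted p = 0.0531 to 0.104). The slope was -0.0447 ± 0.0147 (adjusted p = 0.0287), and it was lost without library 1 at 0 µg/ml, any 1 at 50 µg/ml, or library 1 or 2 at 100 µg/ml (at most adjusted p = 0.0623).

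**Figure D2:**
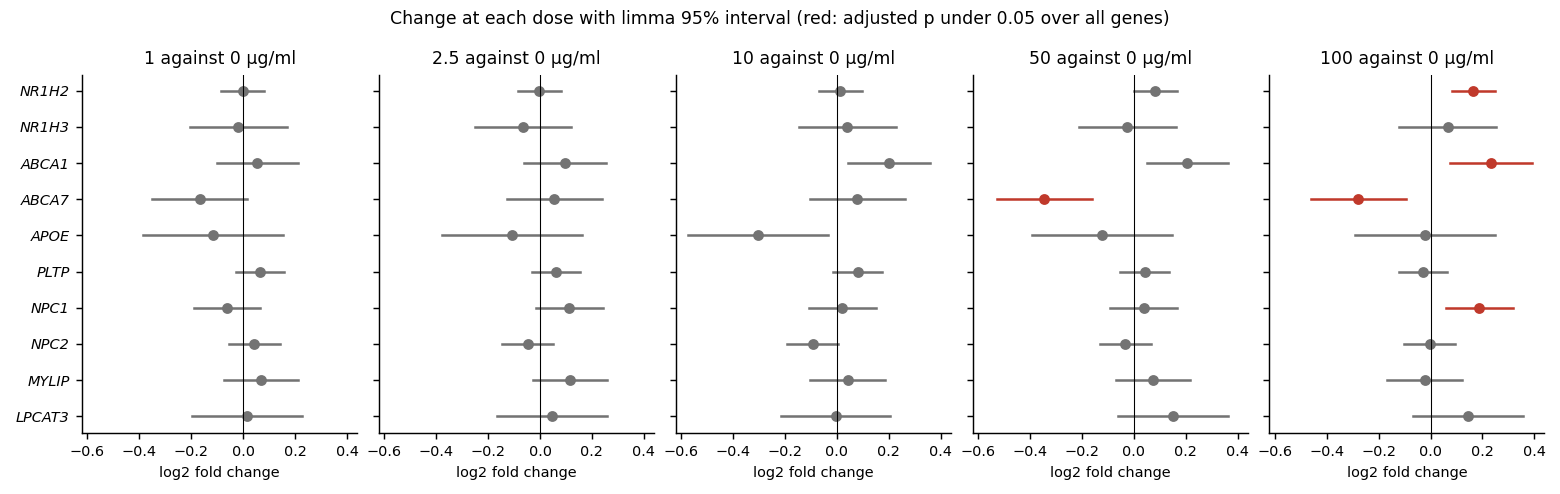
Log2 fold change on log2(FPKM + 0.5) (horizontal axes) of each of the 10 genes (rows) at 1, 2.5, 10, 50 and 100 against 0 µg/ml (panels), with the limma 95% interval, and genes with an adjusted p under 0.05 in red. No gene is red up to 10 µg/ml, ABCA7 is red at 50 µg/ml, and ABCA1, ABCA7, NR1H2 and NPC1 are red at 100 µg/ml.

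Set against each other within a library, the exporters show this as 1 number. ABCA7 was 2.12, 2.05 and 1.995 times ABCA1 at 100 µg/ml and 2.06, 1.89 and 2.04 times at 50 µg/ml, against 3.84, 3.28 and 3.42 times at 0 µg/ml. All 6 ratios at the upper doses were below every ratio at the lower 4 doses, where they ranged between 2.38 and 4.16. These ratios are per length and are given as a description, since both genes were already tested singly. Of the other ABCA transporters, 3 of 10 were tested and limma called none at 50 or 100 µg/ml: at 100 µg/ml ABCA2 had a log2 fold change of -0.11, ABCA5 0.19 and ABCA8 -0.11. Before adjustment 1 of the 3, ABCA5, had p under 0.05 at either dose.

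**Figure D3:**
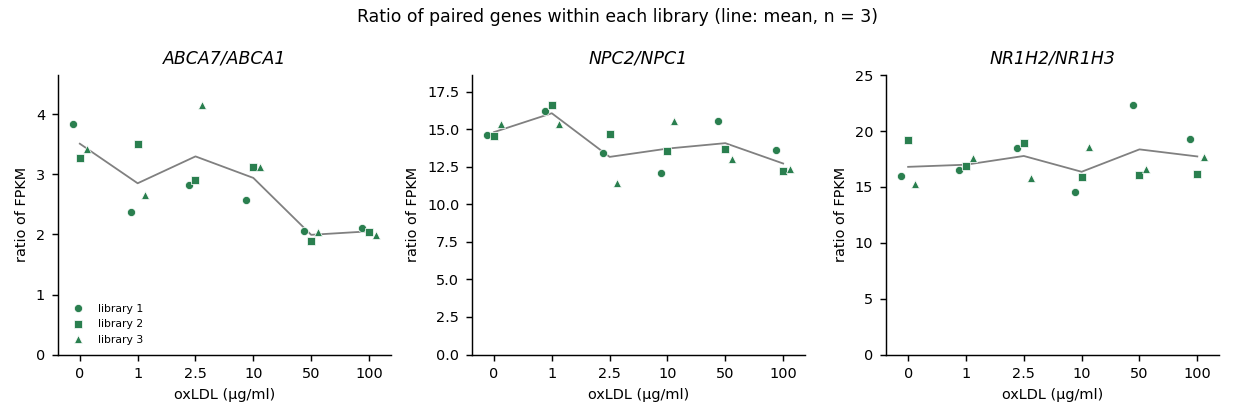
Ratio of FPKM within each library (vertical axes, from 0) against oxLDL dose in µg/ml (horizontal axes, doses evenly spaced) for ABCA7/ABCA1, NPC2/NPC1 and NR1H2/NR1H3, with 1 symbol per library number and a line through the mean of 3 libraries. The ABCA7/ABCA1 ratio lies between 1.89 and 2.12 at 50 and 100 µg/ml and between 2.38 and 4.16 at the lower doses, while the NR1H2/NR1H3 ratio overlaps between all doses.

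In the lysosome, NPC1, the membrane protein through which cholesterol leaves, rose at 100 µg/ml, and its soluble partner NPC2 did not pass the test. NPC1 lies at chr18:23506184-23586506 on the minus strand. It had 3.14, 3.10 and 2.99 FPKM at 0 µg/ml, 2.93, 2.78 and 3.07 at 1, 3.41, 3.10 and 3.62 at 2.5, 3.38, 3.12 and 2.91 at 10, 3.02, 3.19 and 3.32 at 50, and 3.51, 3.72 and 3.51 FPKM at 100 µg/ml. The libraries at 100 µg/ml were above all at 0, 1, 10 and 50 µg/ml, and 1 library at 2.5 µg/ml, the one that stood apart, lay among them. The mean was 3.58 ± 0.118 FPKM at 100 µg/ml and 3.08 ± 0.0781 FPKM at 0 µg/ml, 16.2% higher, a log2 fold change of 0.19 ± 0.061 (95% interval 0.06 to 0.32; adjusted p = 0.0449). At 50 µg/ml it was 0.04 (adjusted p = 0.772).

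The call of NPC1 was close to the threshold. It was lost in 13 of 29 other settings (adjusted p = 0.0523 to 0.142), among them those without library 1, 2 or 3 at 0 µg/ml, 1 at 1, 1 at 2.5, 2 at 10, 2 at 50, and 1, 2 or 3 at 100 µg/ml. The slope of NPC1 had an adjusted p of 0.0714 with all libraries, 0.0272 without the library at 2.5 µg/ml that stood apart and 0.0379 without library 1 at 50 µg/ml. The F test gave 0.0646 with all libraries, 0.0333 without library 2 at 2.5 µg/ml and 0.0445 without library 1 at 10 µg/ml. NPC1 shares 604 exonic bases, 5.98% of its exons, with RMC1 on the opposite strand. Between 396 and 1126 reads lay behind each value.

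NPC2 was an abundant transcript, second of the 10 genes after PLTP. It lies at chr14:74479935-74493512 on the minus strand. It had 47.7, 45.5 and 43.3 FPKM at 100 µg/ml, against 45.8, 45.0 and 45.8 FPKM at 0 µg/ml. The groups overlapped, and the log2 fold change was -0.004 (95% interval -0.10 to 0.09; adjusted p = 0.976), with 871 to 2457 reads behind each value. At 1 µg/ml the values of 47.5, 46.3 and 47.1 FPKM were all above those at 0 µg/ml, by 0.04 on the log2 scale, without a call. Its lowest mean was 42.7 ± 2.22 FPKM at 10 µg/ml, where the log2 fold change was -0.09 (adjusted p = 0.526). NPC2 was 13.6, 12.2 and 12.3 times NPC1 at 100 µg/ml, against 14.6, 14.5 and 15.3 times at 0 µg/ml, with all 3 ratios at 100 µg/ml the lower.

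Around these carriers, the lysosomal release and sterol transfer list had 20 of 23 genes tested, of which 4 rose and 1 fell at 100 µg/ml. GRAMD1B, which carries plasma membrane cholesterol to the endoplasmic reticulum, averaged 0.872 ± 0.102 FPKM at 100 µg/ml and 0.473 ± 0.0228 FPKM at 0 µg/ml (log2 fold change 0.49 ± 0.083, adjusted p = 0.000628). RAB7A, the GTPase of late endosomes, averaged 174.8 ± 1.96 FPKM at 100 µg/ml and 147.9 ± 2.70 FPKM at 0 µg/ml (0.24 ± 0.026, adjusted p = 9.86e-06). The lysosomal membrane proteins LAMP2 and LAMP1 rose by 0.15 and 0.12 (adjusted p = 0.00284 and 0.00519). STARD4, a soluble sterol carrier that is itself under SREBP2 control, fell to 5.01 ± 0.407 FPKM at 100 µg/ml, against 6.84 ± 0.423 FPKM at 0 µg/ml (-0.41 ± 0.085, adjusted p = 0.00291), and shares 124 exonic bases with STARD4-AS1 on the opposite strand. None of these 5 calls was lost in any setting. At 50 µg/ml GRAMD1B, RAB7A and LAMP2 rose and STARD4 fell. LIPA, which frees cholesterol from its esters in the lysosome, was called at neither dose, and the list's median at 100 µg/ml was 0.0268.

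Of the lipoprotein genes, neither APOE nor PLTP was called at any dose. APOE, the main cholesterol acceptor of the brain, lies at chr19:44905796-44909393 on the plus strand. It had 3.10, 2.89 and 3.10 FPKM at 0 µg/ml, 2.77, 2.45 and 3.06 at 1, 2.89, 2.23 and 3.29 at 2.5, 2.24, 2.93 and 1.99 at 10, 2.46, 2.82 and 2.98 at 50, and 3.52, 2.77 and 2.70 FPKM at 100 µg/ml. The libraries overlapped between 0 µg/ml and every dose, and the spread was widest at 2.5 µg/ml (SD 0.533 FPKM). The lowest mean was 2.39 ± 0.484 FPKM at 10 µg/ml, against 3.03 ± 0.124 FPKM at 0 µg/ml, a log2 fold change of -0.30 (95% interval -0.57 to -0.03; adjusted p = 0.503). At 100 µg/ml it was -0.02 (-0.29 to 0.25; adjusted p = 0.947). With 51 to 146 reads behind each value, counting error alone was near 10.8%, and APOE had the fewest reads of the 10 genes.

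PLTP, which moves phospholipid between lipoprotein particles and is an LXR target in liver and macrophages, was the most abundant of the 10 genes at every dose. It had 48.2, 49.7 and 51.6 FPKM at 100 µg/ml, against 51.4, 48.6 and 52.7 FPKM at 0 µg/ml. These overlapped, and the log2 fold change was -0.03 (95% interval -0.12 to 0.06; adjusted p = 0.723). All 18 values lay between 48.2 and 56.1 FPKM on 1448 to 3741 reads. PLTP lies at chr20:45898620-45912155 on the minus strand and shares 200 exonic bases with CTSA, a lysosomal protease gene, on the opposite strand. PLTP was 13.7, 17.9 and 19.1 times APOE at 100 µg/ml, against 16.6, 16.8 and 17.02 times at 0 µg/ml.

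Among other apolipoprotein and lipoprotein remodelling genes, 8 of 24 were tested, and 3 fell at 100 µg/ml while limma called none higher (1, APOOL, was higher with p under 0.05 before adjustment). APOL1 and APOL2, neighbouring paralogs whose reads the counting could split between them, fell by 0.33 and 0.25 on the log2 scale (adjusted p = 0.000213 and 0.00539), and both also fell at 50 µg/ml. LCAT, which esterifies cholesterol on lipoproteins, averaged 6.35 ± 0.526 FPKM at 100 µg/ml and 7.97 ± 0.514 FPKM at 0 µg/ml (-0.31 ± 0.087, adjusted p = 0.0236). Its call was lost without library 1 or 3 at 0 µg/ml or library 1 at 100 µg/ml (at most adjusted p = 0.108), and it overlaps SLC12A4 on the same strand. The list's median was -0.00447.

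MYLIP, also called IDOL, the ubiquitin ligase that LXR induces to degrade lipoprotein receptors, was low and was not called at any dose. It lies at chr6:16129086-16163887 on the plus strand. It had 0.837, 0.688 and 0.688 FPKM at 100 µg/ml, against 0.802, 0.745 and 0.718 FPKM at 0 µg/ml. The groups overlapped, and the log2 fold change was -0.02 (95% interval -0.17 to 0.12; adjusted p = 0.881). Its highest mean was 0.860 ± 0.0631 FPKM at 2.5 µg/ml, which includes the library that stood apart. The length implied by the deposited values was 11291 bases for MYLIP, against 3033 bases of exons in GENCODE v29, while for the other 9 genes it was 47.4% to 91.8% of the GENCODE exons. On the GENCODE length MYLIP would therefore have a higher FPKM, which leaves its comparison between doses as it is and makes its place among the 10 genes uncertain.

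Of the receptors that MYLIP degrades, LRP8 (the apolipoprotein E receptor 2) rose and VLDLR was not called. LRP8 averaged 4.73 ± 0.416 FPKM at 100 µg/ml and 2.91 ± 0.193 FPKM at 0 µg/ml, a log2 fold change of 0.62 ± 0.066 (adjusted p = 7.77e-06), and it was also called at 50 µg/ml (0.46, adjusted p = 0.000414). Exons of LRP8 overlap antisense transcripts that are not analysed here. VLDLR had a log2 fold change of 0.03 (adjusted p = 0.859). Of the 11 genes in the list of MYLIP substrates and partners, all were tested and 2 rose, with a median of 0.00372. The second that rose was UBE2D3, an E2 enzyme of ubiquitin transfer (0.11, adjusted p = 0.0373), which was lost in 8 of 29 settings: median-ratio scaling, no variance trend, only the doses compared, and without library 1, 2 or 3 at 0 µg/ml or 1 or 3 at 100 µg/ml (at most adjusted p = 0.161).

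LPCAT3, the LXR target that puts polyunsaturated chains into phospholipids, had higher means at the upper doses but was not called. It had 4.33, 3.79 and 4.57 FPKM at 0 µg/ml, 3.81, 4.72 and 4.31 at 1, 3.75, 4.14 and 5.37 at 2.5, 4.0, 4.46 and 4.16 at 10, 4.56, 4.61 and 5.06 at 50, and 5.00, 4.74 and 4.44 FPKM at 100 µg/ml. The libraries at 50 and 100 µg/ml overlapped those at 0 µg/ml. The mean was 4.72 ± 0.281 FPKM at 100 µg/ml and 4.23 ± 0.397 FPKM at 0 µg/ml, 11.7% higher, a log2 fold change of 0.15 (95% interval -0.07 to 0.36; adjusted p = 0.384). The slope had an adjusted p of 0.141 with all libraries and 0.0406 without the library at 2.5 µg/ml that stood apart. LPCAT3 lies at chr12:6976185-7018476 on the minus strand, and 65.6% of its GENCODE exon bases are shared with EMG1 on the opposite strand. Of the other genes of phospholipid acyl exchange, 11 of 15 were tested and 1, MBOAT1, fell at 100 µg/ml (-0.37, adjusted p = 0.00219) and at 50 µg/ml (-0.30, adjusted p = 0.0196).

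Of 21 further LXR targets outside the 10 genes, 9 were tested and 3 fell at 100 µg/ml, with a median log2 fold change of -0.0432. The 3 were lipogenic genes: SCD, the stearoyl-CoA desaturase, averaged 23.3 ± 1.91 FPKM at 100 µg/ml and 42.6 ± 0.736 FPKM at 0 µg/ml (log2 fold change -0.86 ± 0.091, adjusted p = 7.48e-06). SREBF1, the gene of SREBP1, averaged 7.59 ± 0.456 FPKM at 100 µg/ml and 10.3 ± 0.610 FPKM at 0 µg/ml (-0.41 ± 0.065, adjusted p = 0.000358), and shares exonic bases with RAI1 on the opposite strand. FASN, the fatty acid synthase, averaged 33.9 ± 1.45 FPKM at 100 µg/ml and 44.8 ± 3.26 FPKM at 0 µg/ml (-0.40 ± 0.068, adjusted p = 0.000804). All 3 also fell at 50 µg/ml, and no setting lost a call at 100 µg/ml. Whether LXR had a part in these falls was not tested. ABCG1, which exports cholesterol to mature high-density lipoprotein, was not analysed here.

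In cholesterol storage and synthesis, most calls were falls. Of the esterification genes, 5 of 6 were tested: SOAT1, which makes cholesteryl ester for droplets, averaged 16.5 ± 0.723 FPKM at 100 µg/ml and 13.6 ± 0.693 FPKM at 0 µg/ml (log2 fold change 0.26 ± 0.057, adjusted p = 0.00429). SOAT2, its low-abundance relative, fell to 0.405 ± 0.0112 FPKM at 100 µg/ml, against 0.724 ± 0.0879 FPKM at 0 µg/ml (-0.43 ± 0.101, adjusted p = 0.00745), and it was the only one of the 5 called at 50 µg/ml, where it fell too. The median of that list at 100 µg/ml was -0.082. Of 20 SREBP2 pathway genes, 19 were tested, and 12 fell at 100 µg/ml, with a median of -0.26, and 12 at 50 µg/ml. Limma called none of the 19 higher at either dose, and before adjustment 1 at 100 µg/ml and 2 at 50 µg/ml were higher with p under 0.05. INSIG1, HMGCS1 and MVK had log2 fold changes of -0.72, -0.64 and -0.38 at 100 µg/ml (adjusted p = 7.09e-05, 4.13e-05 and 0.00021).

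**Figure D4:**
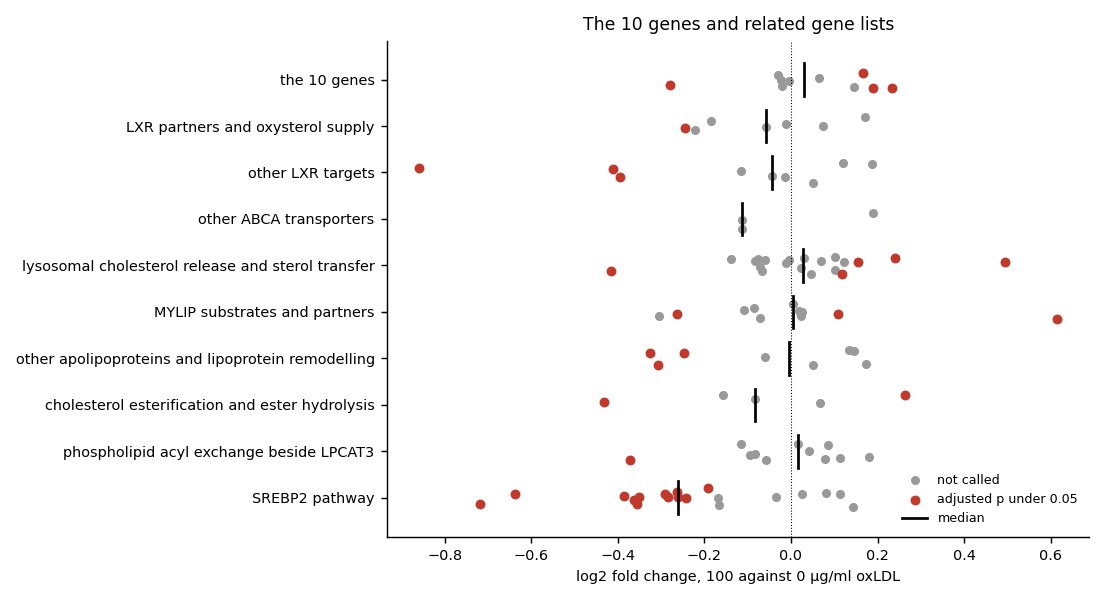
Log2 fold change on log2(FPKM + 0.5) at 100 against 0 µg/ml oxLDL (horizontal axis) of each tested gene (points) of the 10 genes and of 9 related lists (rows), in red where the adjusted p was under 0.05, with a black line at each list's median. The 10 genes centre at 0.0311 with 3 red points to the right and 1 to the left, while the SREBP2 pathway centres at -0.26 with 12 red points, all to the left.

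The order of levels per length was PLTP, NPC2, NR1H2, LPCAT3, NPC1, APOE, NR1H3, ABCA7, ABCA1 and MYLIP at 100 µg/ml, against PLTP, NPC2, NR1H2, LPCAT3, NPC1, APOE, ABCA7, NR1H3, MYLIP and ABCA1 at 0 µg/ml. The first 6 places were the same. ABCA7 stood below NR1H3 at 100 µg/ml and above it at 0 µg/ml, and ABCA1 stood above MYLIP at 100 µg/ml and below it at 0 µg/ml. The place of MYLIP rests on the length implied by the deposited values, so its order against ABCA1 is uncertain at both doses. At 100 µg/ml the libraries of NPC1 and APOE, of NR1H3 and ABCA7, and of ABCA1 and MYLIP overlapped, so these neighbours cannot be ordered. At 0 µg/ml only NPC1 and APOE overlapped among neighbours.

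Likeness between genes was described by Pearson's r of log2(FPKM + 0.5) over the 18 libraries, which share the 6 doses and the depth of each library, and no p is given. Among the 10 genes the highest r was 0.53, for ABCA1 and NR1H2 (Spearman's rho 0.56), and the lowest was -0.59, for ABCA7 and NR1H2 (rho -0.45). For ABCA1 the most alike genes outside the 10 were ASMER1 (r = 0.88), TM9SF4 (0.82) and TSC22D2 (0.80). ABCA7 was closest to ZNF512B (0.96), PLXNB2 (0.95) and LAMB2 (0.94), and NR1H2 to ARID5A (0.92), PRDX1 (0.91) and KIAA0930 (0.90). For NPC1 they were BACH1 (0.89), UAP1L1 (0.81) and ZNF384 (0.81). NPC2 was closest to the ribosomal protein genes RPL27A (0.92), RPSA (0.92) and RPL10 (0.92). The best match of each of the other 5 genes was lower: PTTG1IP for APOE (0.84), SMARCA1 for MYLIP (0.77), FOXJ2 for LPCAT3 (0.75), NPIPB11_1 for NR1H3 (0.74) and CIITA for PLTP (0.74).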

How the data were processed

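Per the labels' protocols, RNA was extracted with TRIzol, poly-A RNA was enriched on poly-T beads, and NEBNext Ultra libraries were sequenced on a NovaSeq. The deposited table holds FPKM for 13992 genes in 18 libraries. HISAT2 2.0.5, featureCounts, DESeq2 and the build hg38 are named in the submitters' processing notes, without their order; the annotation release is not given in the sources used here. FPKM steps gave whole reads within 0.05 for 100% of genes, with 15 values at 0; these reads were used for depth and for a limma-voom alternative. Counting errors cover nothing else, because without molecular identifiers a read does not stand for an independent molecule.

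The 12127 genes that reached 0.5 FPKM in 3 or more libraries were fitted as log2(FPKM + 0.5). The fit used limma 3.58.1 under R 4.3.3, took each dose as its own mean, had 12 residual degrees of freedom and used an eBayes variance trend. Added 0.5 understates the change of low genes. Tests were two-sided, with Benjamini-Hochberg adjustment in each comparison, and the fit was tested on simulated data. The p-values measure the spread between libraries, which may be technical. Log2 fold changes carry the limma SE and levels the SD of 3 libraries. Statements that libraries overlap or lie apart describe the values already tested and add no further support to a call. FPKM was compared as deposited, with no further scaling. Other settings were 2 pseudocounts, no filter, other scalings and variance models, limma-voom, a replicate block, only the doses compared, and each library left out. Promoters and gene coordinates are RefSeq on GRCh38.p14, and exon overlaps are from GENCODE v29.

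The 10 genes and the 9 further lists were chosen with earlier results of these data known. From each list up to 4 called genes with the smallest adjusted p at 100 µg/ml are named, and all where 5 or fewer were called; the 3 genes most alike each of the 10 were ranked by Pearson's r, and for 5 of the 10 the first is given. Genes called at 50 µg/ml, and uncalled ones given by name, were chosen after their values were seen. Some genes of the lists are not reported here.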

Additional observations from a re-analysis of the deposited data

How the results depend on the processing

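Replicate numbers did not pair the libraries: 10 of 45 same-numbered pairs correlated above 0.1, and 5 of 18 libraries correlated best with their own number. With a replicate block, 2 of the 10 genes were called at 100 against 0 µg/ml in place of 4 (ABCA1 adjusted p = 0.055, NPC1 0.0573), and 9 genes in all at 10 µg/ml in place of 5. With only the doses compared in the fit, 2 of the 10 were called at 100 µg/ml, 1 gene in all at 10 and at 1 µg/ml in place of 5 and 0, and 89 genes at 50 against 10 µg/ml in place of 317. At 10 µg/ml the count was 2 with no filter and 1 with median-ratio scaling, upper-quartile scaling or no variance trend. With limma-voom, 2 of the 10 genes were called at 50 µg/ml, ABCA1 being the added one (log2 fold change 0.35, adjusted p = 0.0458), and 4 over all doses, ABCA1 and NPC1 being added (adjusted p = 0.0367 and 0.0130). The causes were not tested.

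Leaving out 1 library gave 0 to 6 genes at 10 µg/ml, 458 to 1027 at 50, 1203 to 2011 at 100, 79 to 727 at 50 against 10 and 24 to 42 at 100 against 50 µg/ml, 1299 to 1989 over all doses and 2448 to 3190 for the slope. Of the 10 genes it gave 0 to 1 at 50, 1 to 4 at 100, 1 to 3 over all doses and 2 to 5 for the slope. No called value of the 10 genes (each dose against 0 µg/ml, 50 against 10, 100 against 50 µg/ml, and the slope) changed sign in any setting, while 23 uncalled ones did in 1 to 5 settings each. The settings for single genes at 50 against 10 and 100 against 50 µg/ml were chosen after seeing the data. Depth limits APOE, NR1H3, ABCA1 and MYLIP most, with counting errors of 10.8%, 9.56%, 8.47% and 7.27% of the level.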
